A study of Homo sapiens with 12 samples.

Results

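Complement is a cascade of plasma proteins that marks surfaces with fragments of C3 and can end in a pore through the membrane. The genes described here are 8 complement components and regulators, C3, CFB, C1S, C1R, CFI, CD46, CD55 and CD59, of 18404 genes measured. They were selected on their gene symbols with earlier results of these same arrays known, the knockdown differences in both lines and the difference between the lines included. All their values below are therefore given as a description, without p-values. Where a place past the threshold is stated for any of them, it is a description too and no support. All 8 were on the array, with 10 probe sets, of which CFB had 3 and each other gene had 1.

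The study used FaDU and JHU-029, established lines from squamous carcinomas of the head and neck, and its title asks how ACTL6A, a chromatin remodelling subunit, and p63, the transcription factor of basal keratinocytes, activate Hippo-YAP. Each line had received lentivirus with an shRNA against TP63 (shTP63) or with a control vector (shControl), and total RNA was taken 72 hours later. The 4 groups were FaDU shTP63, FaDU shControl, JHU-029 shTP63 and JHU-029 shControl, with 3 arrays each, 12 in all. TP63 expression is not analysed here, so the knockdown was not checked, and the number of shRNA sequences and the medium of each line are not given in the sources used here. Whether replicates came from separate cultures is not stated, so errors measure the spread between these arrays only. The FaDU shControl arrays numbered 1 and 2 carry the extra word "new" in their titles.

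Each value is the log2 of a deposited intensity, a brightness of the probes of 1 gene, so levels are compared between samples within a gene and never between genes. The median log2 intensity of an array lay between 6.46 and 6.56, and arrays of 1 group correlated at 0.993 to 0.997 over all probe sets. Of 7 epithelial markers 6 were measured (KRT5, KRT14, KRT8, KRT18, CDH1 and EPCAM), and in each group all 6 had means above the array median. Among markers of other cell types, group means of the leukocyte gene PTPRC were 3.37 to 3.55, those of the fibroblast gene DCN 3.15 to 3.31, and those of the hepatocyte gene ALB 3.70 to 3.99. Others on the same lists were above the array medians in every group, with CD68 (leukocyte list) at 10.75 to 10.96, COL1A1 (fibroblast list) at 7.66 to 8.09 and APOA1 (hepatocyte list) at 7.01 to 7.13. CDH5 (endothelial list) averaged 9.69 in FaDU shTP63 and 8.69 in FaDU shControl.

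The liver makes most plasma complement, and epithelial cells such as keratinocytes are known to make some of the components locally. The classical pathway uses the proteases C1r and C1s, the alternative pathway uses factor B, and both converge on C3. Human cells guard their own surface with the membrane proteins CD46, CD55 and CD59, and factor I inactivates deposited C3b with CD46 as a cofactor.

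In FaDU cells, C3 was higher after TP63 knockdown by 3.67-fold and CFB by 2.92-fold on its brightest probe set, and by less on its others. CD55 and CD59 were slightly higher, and C1S, C1R, CFI and CD46 differed by 0.13 or less on the log2 scale. In JHU-029 cells the differences of all 8 genes, on the brightest probe set of each, lay between -0.18 and 0.12. These are bulk samples, so fewer cells with a transcript and less RNA per cell cannot be told apart. In the linear model fitted over all genes (limma, adjusted p under 0.05), 4 of the 8 genes passed in FaDU, all of them higher, while 26.6% of all 18404 genes passed there, 12.4% higher and 14.2% lower. In JHU-029, 0 of the 8 passed, and 0 of 8 had an unadjusted p under 0.05, with 3.15% of all genes past the threshold. Since the genes were chosen with these values known, nothing is read from either count. The median difference over the 8 genes was 0.16 in FaDU, against 0.02 over all genes, and 0.04 in JHU-029, against 0.00 over all genes.

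C3 (probe set 8033257), the component whose cleavage both pathways share, stood at 9.13, 9.16 and 8.88 log2 intensity on the 3 FaDU shTP63 arrays, against 7.17, 7.30 and 7.08 on the FaDU shControl arrays. Every FaDU shTP63 array lay far above every FaDU shControl array, and the gap was many times the spread within either group. The difference was 1.88 (SE 0.09, n = 3 arrays per group), or 3.67-fold. In JHU-029, C3 stood at 5.88, 5.66 and 5.83 on the shTP63 arrays, against 5.65, 5.63 and 5.72 on the shControl arrays. These groups overlapped, with a difference of 0.12 (SE 0.09), and all 6 values lay below the array medians. In the fits that left out 1 array each, the FaDU difference of C3 lay between 1.82 and 1.97.

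CFB encodes factor B, the protease that joins C3b to form the C3-cleaving enzyme of the alternative pathway. On its brightest probe set (8179351) it stood at 8.71, 8.72 and 8.71 on the FaDU shTP63 arrays, against 7.11, 7.25 and 7.16 on the FaDU shControl arrays. The FaDU shTP63 arrays were the highest of all 12, and the difference was 1.54 (SE 0.09), or 2.92-fold. In JHU-029 the values were 6.33, 6.10 and 6.40 on the shTP63 arrays, against 6.48, 6.38 and 6.16 on the shControl arrays. The JHU-029 groups overlapped, with a difference of -0.06 (SE 0.09).

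**Figure D1:**
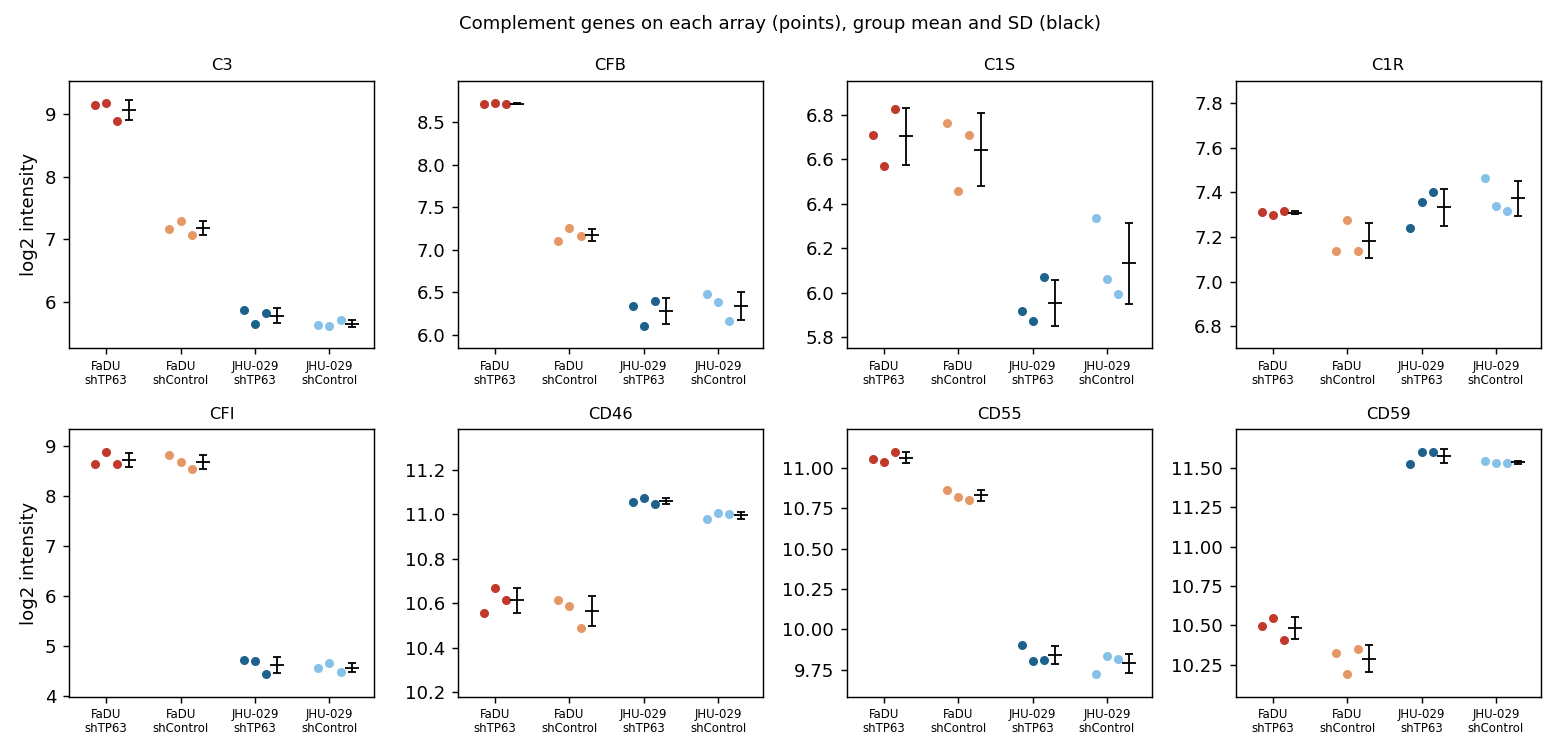
Log2 intensity (vertical axis, its range set per gene) of the 8 complement genes on each of the 12 arrays, by group; points are arrays in replicate order and the black marks give the group mean and SD (n = 3). FaDU shTP63 stands apart from FaDU shControl for C3 and CFB, CFI separates the lines, and CD46 and CD59 are higher in JHU-029.

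The 3 CFB probe sets differed in size. Probe set 8178115 gave 7.89, 8.26 and 7.95 on the FaDU shTP63 arrays, against 6.71, 6.75 and 6.40 on the FaDU shControl arrays, a difference of 1.41 (SE 0.19). Probe set 8118345 gave 6.84, 7.22 and 6.0, against 5.53, 6.05 and 6.09, a difference of 0.79 (SE 0.24). On that probe set FaDU shTP63 replicate 3 lay below 2 of the FaDU shControl arrays, so the groups overlapped. In JHU-029 the difference was 0.08 (SE 0.19) on probe set 8178115 and -0.34 (SE 0.24) on probe set 8118345. On probe set 8118345 the JHU-029 groups did not overlap, at 5.96, 5.95 and 5.92 on the shTP63 arrays, against 6.27, 6.26 and 6.33 on the shControl arrays. All 3 are annotated with the CFB symbol alone, so which of them reads the gene best cannot be told apart from the files.

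**Figure D2:**
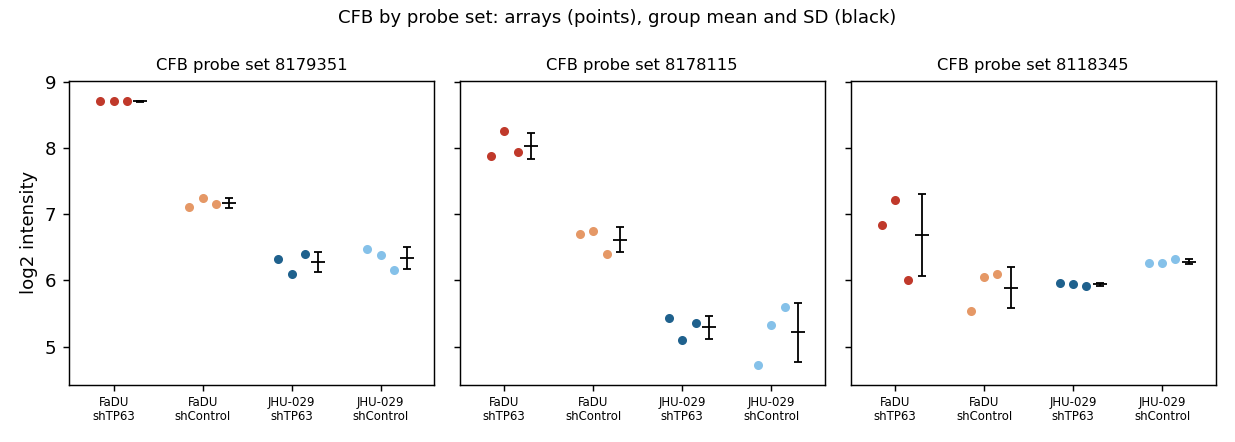
Log2 intensity of CFB on its 3 probe sets, by group; points are arrays and the black marks give the group mean and SD (n = 3). The FaDU shTP63 arrays lie above the FaDU shControl arrays on probe sets 8179351 and 8178115 and overlap with them on probe set 8118345.

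The promoter of CFB is shown because CFB was one of the 2 genes with a difference of over 1 in FaDU, and that of CFI because CFI separated the lines without following the knockdown. RefSeq promoter windows (GRCh38.p14), from 250 bases before to 50 bases after a gene's start, were held for 6 of the 8 genes in 11 windows, and C3 and C1S had no window. Both are printed 5′ to 3′ along the gene's own strand, with matches to 5 short motifs in capitals. The CFB window is chr6:31945845-31946144, plus strand, and the CFI window is chr4:109801950-109802249, minus strand.
CFB: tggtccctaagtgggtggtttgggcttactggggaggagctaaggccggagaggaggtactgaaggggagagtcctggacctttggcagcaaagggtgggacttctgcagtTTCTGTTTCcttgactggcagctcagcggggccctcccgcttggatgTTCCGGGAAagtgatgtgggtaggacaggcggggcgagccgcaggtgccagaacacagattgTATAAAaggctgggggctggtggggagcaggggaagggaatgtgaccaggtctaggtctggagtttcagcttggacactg
CFI: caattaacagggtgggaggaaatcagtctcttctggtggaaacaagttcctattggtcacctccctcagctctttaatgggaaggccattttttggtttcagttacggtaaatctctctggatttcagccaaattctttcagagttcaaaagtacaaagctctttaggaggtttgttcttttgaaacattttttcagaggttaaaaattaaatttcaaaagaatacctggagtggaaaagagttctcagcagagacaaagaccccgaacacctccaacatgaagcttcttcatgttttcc

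Both strands were searched for each motif, and no match in the printed CFB window overlaps another. The capitals in CFB mark, in order, TTCTGTTTC, which matches the interferon response element (GAAANNGAA) on the minus strand from base -139, the STAT motif TTCNNNGAA from base -92, and the TATA box (TATAAA) from base -30. Of all 35116 promoter windows of the same length, 8.11% held the interferon response element, 7.66% the STAT motif and 11.5% the TATA box. The CFI window held none of the 5 motifs. The NF-kB motif GGGANTTTC (1.28% of all windows) and ACATGT, letters from the core of the p53 family site (4.19%), were in none of the 11 windows. The STAT motif was also in 1 of 2 C1R windows and in 2 of 4 CD59 windows, which overlap and share the match, and in no window of CD46 or CD55. The CFI window was 39.3% G and C and the CFB window 59%, against a median of 58.7% over all windows. A match is a run of letters and shows no binding.

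C1R and C1S encode the paired proteases of the first component of the classical pathway. C1S (probe set 7953603) stood at 6.71, 6.57 and 6.83 on the FaDU shTP63 arrays, against 6.76, 6.46 and 6.71 on the FaDU shControl arrays, a difference of 0.06 (SE 0.11). In JHU-029 its values were 5.92, 5.87 and 6.07 on the shTP63 arrays, against 6.34, 6.06 and 5.99 on the shControl arrays, a difference of -0.18 (SE 0.11). The groups of each line overlapped for C1S. C1R (probe set 7960744) stood at 7.31, 7.30 and 7.32 on the FaDU shTP63 arrays, against 7.14, 7.28 and 7.14 on the FaDU shControl arrays. These groups did not overlap, but the highest FaDU shControl array lay just below the FaDU shTP63 arrays, and the difference was 0.13 (SE 0.06). In JHU-029 the C1R groups overlapped, with a difference of -0.04 (SE 0.06).

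CFI (probe set 8102328) encodes factor I, the plasma protease that cuts C3b and C4b into inactive forms. It stood at 8.63, 8.89 and 8.65 on the FaDU shTP63 arrays, against 8.82, 8.68 and 8.54 on the FaDU shControl arrays. On the JHU-029 arrays it stood at 4.72, 4.69 and 4.43 with shTP63, against 4.57, 4.67 and 4.48 with shControl. The knockdown difference was 0.04 (SE 0.10) in FaDU and 0.05 (SE 0.10) in JHU-029, with overlapping groups in both lines. Between the lines the gap was far larger than any spread between arrays, and the JHU-029 values were well below the array medians.

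CD46, CD55 and CD59 encode the 3 widely expressed membrane inhibitors. CD55 (probe set 7909332), also called decay-accelerating factor, dismantles the enzymes that cleave C3. It stood at 11.05, 11.04 and 11.10 on the FaDU shTP63 arrays, against 10.87, 10.82 and 10.80 on the FaDU shControl arrays. The groups did not overlap, and the difference was 0.24 (SE 0.05), or 1.18-fold. In JHU-029 it stood at 9.91, 9.81 and 9.81 on the shTP63 arrays, against 9.72, 9.83 and 9.82 on the shControl arrays, a difference of 0.05 (SE 0.05) with overlap.

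CD59 (probe set 7947425) blocks assembly of the membrane attack complex, the pore that ends the cascade. It stood at 10.50, 10.54 and 10.41 on the FaDU shTP63 arrays, against 10.33, 10.19 and 10.35 on the FaDU shControl arrays. The groups did not overlap, and the difference was 0.20 (SE 0.06), or 1.15-fold. Its place past the threshold was lost without FaDU shControl replicate 2 (difference 0.15), FaDU shTP63 replicate 1 (0.19) or FaDU shTP63 replicate 2 (0.16), and without both arrays titled "new" (0.13). In JHU-029 the difference was 0.04 (SE 0.06), with overlapping groups.

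CD46 (probe set 7909400), the cofactor with which factor I inactivates C3b and C4b on the cell itself, stood at 10.55, 10.67 and 10.62 on the FaDU shTP63 arrays, against 10.62, 10.59 and 10.49 on the FaDU shControl arrays, a difference of 0.05 (SE 0.05) with overlap. In JHU-029 it stood at 11.05, 11.07 and 11.05 on the shTP63 arrays, against 10.98, 11.00 and 11.00 on the shControl arrays. The JHU-029 groups did not overlap, with a difference of 0.06 (SE 0.05). Over the 8 genes, the arrays of the 2 groups did not overlap for 5 genes in FaDU, while that held for 36.1% of all genes. In JHU-029, on the brightest probe set of each gene, they did not overlap for 1 gene, CD46, while that held for 24.9% of all genes.

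**Figure D3:**
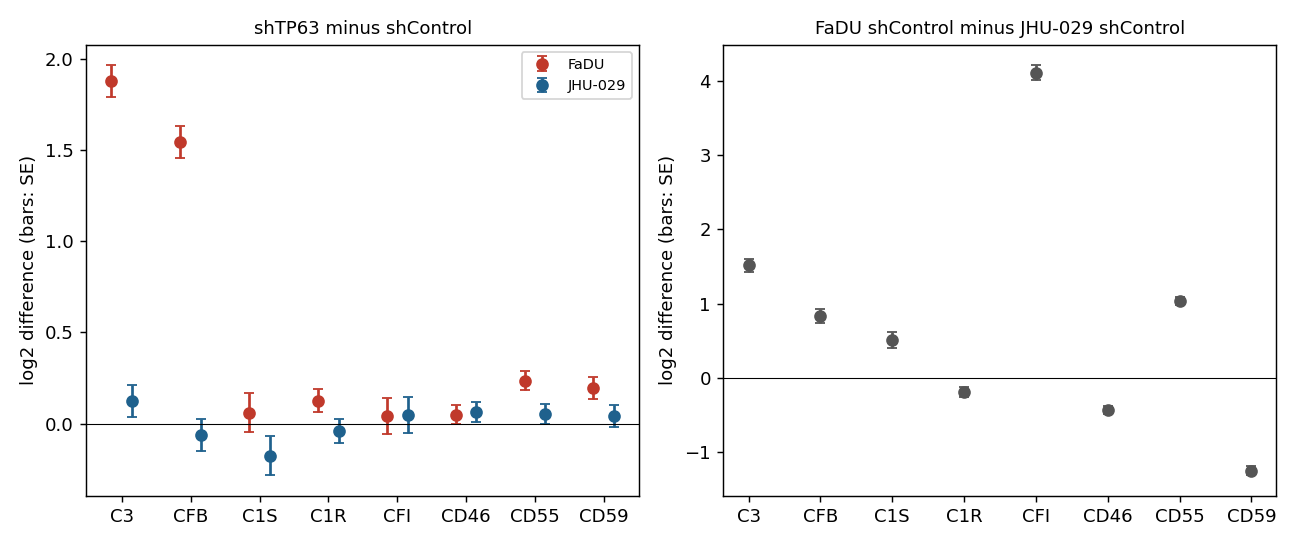
Log2 difference of the 8 complement genes for shTP63 minus shControl in FaDU and in JHU-029 (left) and for FaDU shControl minus JHU-029 shControl (right); bars are the SE of the fit over all arrays. In FaDU, C3 (1.88) and CFB (1.54) lie far from the other 6 genes, while CFI (4.11) is the largest of the line differences.

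Set against each other, the FaDU effect minus the JHU-029 effect was 1.75 for C3 (SE 0.12) and 1.61 for CFB on its brightest probe set (SE 0.13). It was 1.34 (SE 0.27) on CFB probe set 8178115 and 1.13 (SE 0.34) on CFB probe set 8118345. For the other 6 genes it lay between -0.01 and 0.24. In the model over all genes, C3 and CFB passed for this difference, 2 of the 8 genes, while 13.2% of all genes passed, 4.97% with a larger value in FaDU and 8.25% with a larger value in JHU-029. Nothing is read from that count either, as both were chosen with this difference known. In the fits without 1 array the difference was 1.69 to 1.84 for C3 and 1.52 to 1.70 for the brightest probe set of CFB. The median over the 8 genes was 0.18, against 0.01 over all genes.

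Under control shRNA the lines differed for all 8 genes on the brightest probe set of each. FaDU shControl lay above JHU-029 shControl for 5 and below it for 3, with no overlap for any of them. All 8 passed in the model over all genes, 5 of 8 higher and 3 of 8 lower, as a description, but 63.8% of all genes passed, 33.4% higher and 30.4% lower, and the arrays did not overlap for 69.0%. The median over the 8 genes was 0.67, against 0.05 over all genes. CFI was higher in FaDU shControl by 4.11 (SE 0.10), with means of 8.68 ± 0.14 in FaDU shControl and 4.57 ± 0.09 in JHU-029 shControl (SD, n = 3 each). C3 was higher by 1.52 (SE 0.09), CD55 by 1.04 (SE 0.05), CFB by 0.83 (SE 0.09) and C1S by 0.51 (SE 0.11). CFB differed by 1.41 (SE 0.19) on probe set 8178115 and by -0.39 (SE 0.24) on probe set 8118345. On the latter every FaDU shControl array lay below every JHU-029 shControl array, the reverse of the brightest probe set.

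CD59 was lower in FaDU shControl, with a difference of -1.25 (SE 0.06), at 10.29 ± 0.09 in FaDU shControl and 11.54 ± 0.01 in JHU-029 shControl (SD, n = 3 each). CD46 differed by -0.43 (SE 0.05) and C1R by -0.19 (SE 0.06). The place of C1R past the threshold was lost without JHU-029 shControl replicate 1 (-0.14) or FaDU shControl replicate 1 or 3 (both -0.17). The membrane inhibitors thus did not share a direction between the lines, CD55 being higher in FaDU shControl and CD46 and CD59 lower.

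In the order of the 4 group means, C3 ran FaDU shTP63, FaDU shControl, JHU-029 shTP63 and JHU-029 shControl, and only the JHU-029 neighbours overlapped. CFB, on its brightest probe set, ran the same way with the JHU-029 groups exchanged, and again only these overlapped. CFB probe set 8178115 followed the order of C3, with JHU-029 shTP63 (5.29) above JHU-029 shControl (5.22). On CFB probe set 8118345 FaDU shTP63 (6.68) was highest, then JHU-029 shControl (6.29) and JHU-029 shTP63 (5.95), with FaDU shControl (5.89) lowest. CD55 followed the order of C3, and its JHU-029 groups overlapped. For C1S and CFI both FaDU groups lay above both JHU-029 groups, and the groups within each line overlapped. For CD46 and CD59 the JHU-029 groups lay above the FaDU groups. For C1R the 3 highest means, JHU-029 shControl (7.37), JHU-029 shTP63 (7.33) and FaDU shTP63 (7.31), overlapped in turn, and FaDU shControl (7.18) was lowest.

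The genes whose pattern over the 12 arrays was nearest to that of C3, by the root mean squared difference of log2 values after centring each gene, were SLC46A3 (0.22), the siderophore-binding protein LCN2 (0.28) and the annexin ANXA9 (0.30), where the spread of C3 about its own mean was 1.37. Nearest to CFB were TMEM45B (0.14), the mucin MUC20 (0.18) and the cytokine LIF (0.20), where the spread of CFB about its mean was 0.99. These distances describe the arrays and share the large gap between the lines.

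Of 49 other complement genes, 43 were measured, and 9 of the 43 had a mean at or above the median of all values (6.52). The 6 genes not measured had no probe set with a single symbol. In FaDU, 3 of 43 rose after TP63 knockdown and 0 fell (limma, Benjamini-Hochberg adjusted over all genes; at an unadjusted p under 0.05, 5 higher and 1 lower), a share of 6.98% against 26.6% of all genes. ITGB2, the beta chain shared by complement receptors 3 and 4, stood at 9.31, 9.26 and 9.29 on the FaDU shTP63 arrays, against 8.12, 8.13 and 8.08 on the FaDU shControl arrays. It rose by 1.18 (SE 0.05, adjusted p = 1.89e-08), with every FaDU shTP63 array above every FaDU shControl array. The integrin alpha chain genes ITGAM (-0.10, SE 0.08, adjusted p = 0.365 by limma) and ITGAX (0.12, SE 0.13, adjusted p = 0.572 by limma) did not pass in FaDU.

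C1RL, a relative of C1R, stood at 8.63, 8.57 and 8.49 on the FaDU shTP63 arrays, against 7.97, 8.04 and 8.04 on the FaDU shControl arrays, and rose by 0.55 (SE 0.06, adjusted p = 3.41e-05 by limma). SERPING1, the C1 inhibitor that inactivates C1r and C1s, rose by 0.35 (SE 0.10, adjusted p = 0.0249 by limma) at dim values of 5.93, 6.05 and 6.04, against 5.49, 5.86 and 5.62. The SERPING1 call was lost without FaDU shControl replicate 1 or 3 or FaDU shTP63 replicate 2 or 3 (adjusted p of up to 0.102), and without both arrays titled "new" (0.0589). Without FaDU shControl replicate 2 the count was 6, with MASP1, C4BPA and CPN2 added. THBD passed as lower in FaDU (adjusted p of 0.0202 to 0.0480) with each array centred on its median, which made the split 3 higher and 1 lower, with the offset before the log2 step, without dim genes, with a trend in the variance prior, and without FaDU shControl replicate 1 or FaDU shTP63 replicate 2.

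In JHU-029, 2 of 43 rose and 0 fell (unadjusted p under 0.05, 4 higher and 1 lower), against 1.80% of all genes higher and 1.35% lower. SUSD4, a membrane protein with complement control repeats, stood at 6.75, 6.86 and 6.83 on the shTP63 arrays, against 6.53, 6.37 and 6.34 on the shControl arrays, and rose by 0.40 (SE 0.09, adjusted p = 0.0298 by limma). C5, which starts the terminal pathway, rose by 0.29 (SE 0.07, adjusted p = 0.0459 by limma) at 6.03, 6.28 and 6.13, against 5.90, 5.79 and 5.88. Both calls were lost without JHU-029 shControl replicate 2 or 3 or JHU-029 shTP63 replicate 2 or 3, which left a count of 0. The C5 call was also lost without JHU-029 shControl replicate 1, any FaDU shControl replicate or FaDU shTP63 replicate 2, which left a count of 1, and its adjusted p reached 0.194. The count was 3 without JHU-029 shTP63 replicate 1, with FCN3 added as lower, and 3 without FaDU shTP63 replicate 3, with THBD added as higher.

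**Figure D4:**
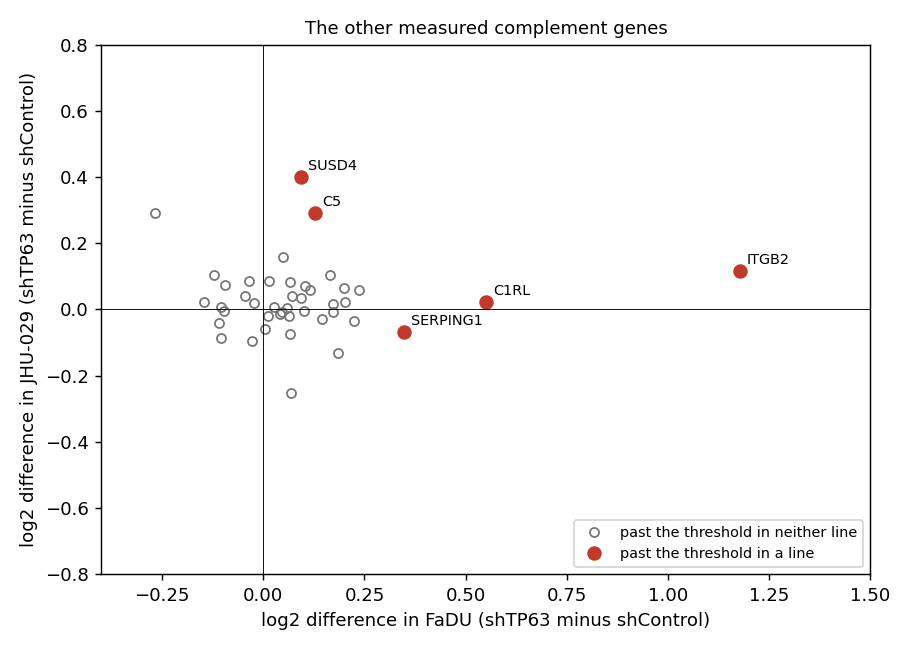
Log2 difference (shTP63 minus shControl) of the 43 other complement genes in FaDU (horizontal axis) and JHU-029 (vertical axis); filled points passed the threshold in 1 of the lines. ITGB2, C1RL and SERPING1 passed in FaDU, and SUSD4 and C5 in JHU-029.

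The difference between the lines itself passed for 4 of the 43 genes, a share of 9.3% against 13.2% of all genes. It was 1.06 for ITGB2 (SE 0.07, adjusted p = 4.68e-06) and 0.53 for C1RL (SE 0.09, adjusted p = 0.00194), both by limma. For THBD, the thrombomodulin gene, whose product also curbs complement, it was -0.56 (SE 0.13, adjusted p = 0.0147 by limma), with -0.27 in FaDU (adjusted p = 0.0520) and 0.29 in JHU-029 (adjusted p = 0.134). For FCN3, a lectin pathway ficolin, it was 0.32 (SE 0.10, adjusted p = 0.0490 by limma), a call that held in only 2 of the 12 fits without 1 array, those without FaDU shControl replicate 1 or JHU-029 shTP63 replicate 1 (adjusted p of up to 0.120 in the other 10). SERPING1 did not pass by limma (0.41, SE 0.15, adjusted p = 0.0860), but it did without JHU-029 shControl replicate 1 (adjusted p = 0.0249) or FaDU shControl replicate 2 (adjusted p = 0.0250).

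Other measured components that did not pass for the knockdown included C2, the classical pathway counterpart of factor B, at 0.10 in FaDU (SE 0.07, adjusted p = 0.303) and 0.00 in JHU-029 (SE 0.07, adjusted p = 0.990). CFD, the protease that activates factor B, was at 0.04 in FaDU (SE 0.09, adjusted p = 0.804) and -0.01 in JHU-029 (SE 0.09, adjusted p = 0.977). CFP, which encodes properdin, the stabiliser of the alternative pathway enzyme, was at 0.03 (SE 0.10, adjusted p = 0.885) and 0.01 (SE 0.10, adjusted p = 0.990). CLU, which encodes clusterin, a soluble inhibitor of the terminal complex, was at 0.07 (SE 0.06, adjusted p = 0.398) and 0.04 (SE 0.06, adjusted p = 0.848). The group means of C2 and CFP were near or below the array medians.

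Between the control groups, 17 of 43 were higher and 2 lower in FaDU shControl than in JHU-029 shControl by limma, 44.2% in all against 63.8% of all genes. Cyclic loess scaling gave 10 higher and 4 lower. The 17 were C1QC, C1RL, C2, MBL2, MASP1, FCN1, COLEC10, COLEC11, CFD, C8B, CFHR2, C4BPA, C4BPB, CR2, C5AR2, ITGAX and ITGB2, by 0.19 to 0.92. Only C1RL, COLEC11, CFD and ITGB2 of these had a mean at or above the median of all values (6.52). Among the dimmest, FaDU shControl and JHU-029 shControl averaged 3.49 and 2.92 for CFHR2, 3.77 and 3.55 for C4BPA, and 3.75 and 3.37 for CR2. C5 was dim too, at 4.28 and 5.86. The 2 lower were C5 (-1.58, SE 0.07, adjusted p = 6.27e-10) and THBD (-0.84, SE 0.09, adjusted p = 3.82e-06). Among the small ones, the calls of C2 (without JHU-029 shControl replicate 1), MASP1 (without FaDU shControl replicate 2), CFHR2 (without JHU-029 shControl replicate 1 or FaDU shControl replicate 3) and C4BPA (without JHU-029 shControl replicate 3 or FaDU shControl replicate 2) rested on single arrays, with adjusted p of up to 0.0876. C1QC was lost without JHU-029 shControl replicate 1 or 2 or FaDU shControl replicate 1 or 3, C4BPB without JHU-029 shControl replicate 1 or 2 or FaDU shControl replicate 2, and MBL2 in 6 of the 12 such fits (adjusted p of up to 0.167 for the 3 genes).

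Values of neighbouring complement genes in FaDU are set side by side here, and whether neighbours differed from each other was not tested. C1S, C1R and C1RL follow each other on chromosome 12, with 0 protein-coding genes between them in RefSeq, and in FaDU they differed by 0.06, 0.13 and 0.55. On chromosome 1, C4BPB, C4BPA, CD55 and CR2 follow each other in the same way, with CR1 next and CD46 1 gene further. In FaDU, C4BPB differed by 0.01 (SE 0.07), C4BPA by 0.17 (SE 0.07), CD55 by 0.24 (SE 0.05), CR2 by -0.04 (SE 0.11), CR1 by -0.10 (SE 0.10) and CD46 by 0.05 (SE 0.05). Of these only CD55 passed the threshold, as a description. C4BPB, C4BPA, CR2 and CR1 were dim, with FaDU shControl means of 5.07, 3.77, 3.75 and 3.46. CFB and C2 are 1 protein-coding gene apart on chromosome 6 and differed by 1.54 and 0.10 in FaDU.

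Markers of other cell types moved with the FaDU comparison in part, and so did KRT5, a basal keratinocyte keratin, which fell by 1.41 in FaDU (SE 0.05, adjusted p = 1.37e-08 by limma). None of the measured markers was at 0, but neither was CFHR2, among the dimmest genes above (2.92 in JHU-029 shControl). A value above 0 therefore does not show that a marker was expressed. The markers with group means above the array median were at most 2 of 4 for leukocytes, 2 of 3 for fibroblasts, 1 of 3 for hepatocytes and 1 of 3 for endothelium. The summed linear intensity of 4 leukocyte markers was 2060 to 2342 on FaDU shTP63 arrays, 1957 to 2021 on FaDU shControl arrays, 1760 to 1893 on JHU-029 shTP63 arrays and 1852 to 1978 on JHU-029 shControl arrays. CD68 made up most of that sum. It averaged 10.96 in FaDU shTP63 and 10.85 in FaDU shControl and did not pass (0.11, SE 0.06, adjusted p = 0.196 by limma). Of the 4, CD14 rose in FaDU by 0.51 (SE 0.09, adjusted p = 0.00102 by limma). PTPRC averaged 3.55 in FaDU shTP63 and 3.42 in FaDU shControl, near the bottom of the scale. The sum of 3 endothelial markers was 842 to 916 on FaDU shTP63 arrays, 468 to 492 on FaDU shControl arrays, 96.4 to 111 on JHU-029 shTP63 arrays and 108 to 115 on JHU-029 shControl arrays. CDH5 made up most of it and rose in FaDU by 1.00 (SE 0.07, adjusted p = 1.25e-06 by limma), whereas PECAM1 averaged 4.49 in FaDU shTP63 and 4.46 in FaDU shControl, and VWF 5.39 and 5.40. The 3 hepatocyte markers summed to 184 to 200 on FaDU shTP63 arrays, 177 to 192 on FaDU shControl arrays, 176 to 190 on JHU-029 shTP63 arrays and 164 to 175 on JHU-029 shControl arrays. The 3 fibroblast markers summed to 310 to 329 on FaDU shTP63 arrays, 293 to 312 on FaDU shControl arrays, 322 to 363 on JHU-029 shTP63 arrays and 339 to 372 on JHU-029 shControl arrays. The part of these genes in the C3, CFB and ITGB2 values was not tested.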

How the data were processed

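Gene expression was measured on 12 single arrays, and the deposited values are intensity on a linear scale. The authors made them by RMA in R 2.15.1, per the submitters' processing notes; the implementation and whether all arrays were normalised together are not given in the sources used here. RMA corrects background, equalises distributions by quantiles and summarises each probe set by median polish. The number of arrays limits the precision.

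Values were put on the log2 scale. Of 32321 probe sets, 19158 carried 1 gene symbol in the platform annotation, 1388 several and 11775 were not listed. The probe set with the highest mean stood for a gene, which gave 18404 genes. The means of the 4 groups were estimated in a single limma fit (limma 3.58.1, R 4.3.3, with 8 residual and 4.17 prior degrees of freedom). P-values are two-sided and carry the Benjamini-Hochberg adjustment over every gene; the threshold is 0.05, and neither a fold limit nor a brightness limit was set. SE is that of the fit. The pipeline was tested on simulated data. Promoters come from RefSeq (GRCh38.p14), and neighbouring genes from RefSeq's gene table.

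The genes, the list of other complement genes, the markers and the motifs were chosen with earlier results of these data known. Named were all 8 genes, every other complement gene past the threshold in a comparison, a set of main components, where measured (among them C2, C5, CFD, CFP, CLU and SERPING1), and the 3 genes nearest in pattern to C3 and to CFB. No p-value is given for any of the 8 genes; how many of them passed the threshold is counted beside the share of all genes, as a description only. Alternatives were 2 other scalings, an offset of 16 before the log2 step, a filter on dim genes, every probe set as its own item, each line fitted alone, a trend in the variance prior, a replicate block, leaving out each array, and leaving out the 2 FaDU shControl arrays titled "new".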

Additional observations from a re-analysis of the deposited data

Results flagged for a closer look

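The effect of TP63 knockdown differed between the lines, by limma's test of the difference itself (adjusted p under 0.05), for 4 of the 43 other complement genes. That is a share of 9.3%, below the 13.2% of all genes that passed. The FaDU effect minus the JHU-029 effect was 1.06 for ITGB2, 0.53 for C1RL and 0.32 for FCN3, and -0.56 for THBD. The FCN3 call was lost under median centring (adjusted p = 0.0670), cyclic loess (0.0838), with all probe sets tested separately (0.0510), with the trend in the variance prior (0.102), with the replicate block (0.0867), without the arrays titled "new" (0.129) and in 10 of the 12 fits without 1 array. The same difference was 1.75 for C3 and 1.61 for CFB on its brightest probe set, given as a description, since both were chosen with these values known. C3 in JHU-029 and FCN3 in both lines lay below the array medians.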

How the results depend on the processing

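Dim genes limit what can be seen: C3, CFB, C1S and CFI each had a group below the array medians. The filter on dim genes kept genes at or above the median gene mean (7.30) and removed C3, CFB, C1S and CFI. It left 2 of the 8 genes past the threshold in FaDU, 0 for the difference between the lines and 4 between the control groups. Among the genes it kept, 4 other complement genes and 7744 genes in all passed between the control groups. In JHU-029, 1014 of the genes it kept passed, against 580 of all 18404 without it. The count of other complement genes there was 0, against 2 without the filter. As it removed SUSD4 (mean 6.53) and C5 (mean 5.17) before testing, that 0 says nothing about their calls. The trend in the variance prior gave 1015 of all genes in JHU-029. The count of other complement genes there was 1 under median centring, cyclic loess, the trend, the replicate block and without the arrays titled "new", C5 being the one lost. Leaving out both of those arrays, which leaves 1 FaDU control assumed to vary like the other groups, 10 of the other complement genes passed between the control groups, and C3 and CFB stood at 1.98 and 1.56 in FaDU. In the fits without 1 array the count in JHU-029 ran from 229 to 626 for all genes and from 0 to 3 for the other complement genes, and in FaDU from 2 to 6 for the other complement genes. For the 8 genes it ran from 3 to 4 in FaDU and was 0 in JHU-029 throughout. Same-numbered arrays of a line did not deviate together (correlations from -0.339 to 0.0134), so the numbers were not taken as pairs. The replicate block gave 377 of all genes in JHU-029 and 3 of the 8 genes in FaDU, without CD59, which was also lost under median centring and in a fit of the FaDU arrays alone. With the block THBD passed as lower in FaDU (adjusted p = 0.0360) and SERPING1 for the difference between the lines (adjusted p = 0.0408). In a limma fit of the JHU-029 arrays alone, C5 was lost (adjusted p = 0.0711) and THBD passed as higher (adjusted p = 0.0381). The count of other complement genes in JHU-029 thus stayed at 2 there. With the brightest probe set standing for each gene, no value past the threshold changed sign under these alternatives; on CFB probe set 8118345 the difference between the control groups was -0.39, against 0.83 on the brightest. The cause of the other changes was not tested.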
